A study of Mus musculus with 96 samples.

Results

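The homeobox genes examined here were 74 of the 109 genes that matched a rule on names. The rule took the Dlx, Gbx, Hmx, Irx, Lhx, Lmx, Msx, Nkx, Otx, Pax, Pbx, Pitx, Pou, Prrx, Zfhx, Onecut, Alx, Barhl, Vax, Tshz and sine oculis families, left out Six3 and Nkx6-2, and added Wt1 and Mafa by name. A gene was kept at a total of at least 100 read counts over 96 libraries. Nkx6-3 (137 counts) and Dlx3 (133 counts) were the lowest inside that limit, and Nkx1-2 (99 counts) and Pou4f3 (96 counts) the highest outside it. The count table lists 48795 genes, of which 23506 reached the same total. The families were selected on names and on total counts, whereas Wt1 and Mafa, which encode no homeodomain, were chosen by their striatal change in these libraries, so their values are given as a description with no test. Antisense transcripts whose names the rule admits (Dlx1as, Dlx6os1, Dlx6os2, Pax6os1 and Six3os1) were kept; 69 of the 74 are annotated as protein-coding.

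Striatal and cortical RNA of 48 C57BL/6 mice aged 6 months was sequenced in bulk, with 8 animals (4 females and 4 males) in each of 6 genotypes and both tissues taken from every animal. These genotypes are wild type (WT), Q140 heterozygotes, Pms1+/-, Q140 with Pms1+/-, Pms1-/-, and Q140 with Pms1-/-. In the Q140 allele an expanded CAG repeat is knocked into Htt, which gives a mouse model of Huntington's disease, and Pms1 encodes a mismatch-repair protein. How the Pms1 allele was made is not stated in the labels. Counts over the whole Pms1 gene were 5.43 ± 0.34 CPM in WT striatum and 4.03 ± 0.44 CPM in Pms1-/- striatum (SD, n = 8 each), a log2 fold change of -0.43 (SE 0.08, edgeR adjusted p = 0.000698). In cortex Pms1 was 3.78 ± 0.40 CPM in WT and 3.53 ± 0.39 CPM in Pms1-/- (SD, n = 8 each), a log2 fold change of -0.10 (SE 0.08, adjusted p = 0.467). The count over the gene thus fell in striatum and did not pass the test in cortex, so it checks the genotype labels only in part. Each library held between 27993751 and 56364535 counts. The 74 genes took 0.134% to 0.150% of a striatal library and 0.112% to 0.129% of a cortical one. CPM here is the gene's count relative to the library size after TMM scaling within a tissue. A gene was called at an adjusted p below 0.05 over all genes tested.

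The tissues carried their marker genes at unequal levels: all 12 medium spiny neuron markers were higher in WT striatum than in WT cortex, and 9 of 10 cortical glutamatergic markers were lower. Summed choroid plexus markers lay between 605.6 and 766.2 CPM in 3 cortical libraries (Q140 replicate 2, Q140 Pms1-/- replicate 1 and Pms1-/- replicate 4) and at no more than 21.85 CPM in the other 45. All Pms1-/- and all Q140 Pms1-/- animals carry a first code number of 16 or more in their labels, against 2 WT, 3 Q140, 0 Pms1+/- and 1 Q140 Pms1+/- animals. No source used here says what that number stands for, and most of the contrast between Pms1 genotypes cannot be told apart from it. Because these are bulk tissues, fewer cells of a type and less RNA per cell cannot be told apart in any result below.

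Homeodomain proteins bind DNA through a conserved helix-turn-helix fold, and many of them set regional and neuronal identity in the embryo and remain expressed in mature neurons. In the ventral forebrain the Dlx factors, Nkx2-1, Lhx6 and Lhx8 direct the birth and identity of GABAergic and cholinergic neurons, and the striatum is built from those lineages. The POU factors join a homeodomain to a second DNA-binding domain, the POU-specific domain. The TALE factors, such as Pbx, act as partners that sharpen the DNA binding of other homeodomain proteins.

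Promoters of 48 of the 74 genes were present in the RefSeq table of GRCm38.p6, each covering 250 bases before to 50 bases after the start. The stretches below belong to 3 of the genes that fell in Q140 striatum (Pou3f3, Pou6f1 and Zfhx2) and to Lhx8, whose RNA was found almost wholly in striatum. Each is written 5′ to 3′ on the gene's own strand, and capitals mark every CG dinucleotide.
Pou3f3, chr1:42695518-42695817, plus strand: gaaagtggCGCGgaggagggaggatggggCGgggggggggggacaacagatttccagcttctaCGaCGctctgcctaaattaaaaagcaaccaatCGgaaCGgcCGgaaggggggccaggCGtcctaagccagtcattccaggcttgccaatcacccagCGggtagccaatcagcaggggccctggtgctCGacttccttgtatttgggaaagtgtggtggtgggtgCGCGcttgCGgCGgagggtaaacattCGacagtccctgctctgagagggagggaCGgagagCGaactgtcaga
Pou6f1, chr15:100599935-100600234, minus strand: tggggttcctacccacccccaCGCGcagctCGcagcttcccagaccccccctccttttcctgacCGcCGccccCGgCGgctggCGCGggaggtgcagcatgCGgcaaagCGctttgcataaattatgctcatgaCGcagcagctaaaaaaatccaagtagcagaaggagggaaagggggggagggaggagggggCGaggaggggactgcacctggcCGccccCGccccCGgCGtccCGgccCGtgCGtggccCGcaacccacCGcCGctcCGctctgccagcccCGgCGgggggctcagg
Zfhx2, chr14:55091999-55092298, minus strand: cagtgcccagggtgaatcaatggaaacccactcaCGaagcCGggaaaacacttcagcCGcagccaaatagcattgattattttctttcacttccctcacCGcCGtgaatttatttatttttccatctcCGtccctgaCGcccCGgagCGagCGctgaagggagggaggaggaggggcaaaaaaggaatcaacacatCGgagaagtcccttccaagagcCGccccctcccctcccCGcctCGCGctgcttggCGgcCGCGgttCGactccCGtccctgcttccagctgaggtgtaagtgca
Lhx8, chr3:154330511-154330810, minus strand: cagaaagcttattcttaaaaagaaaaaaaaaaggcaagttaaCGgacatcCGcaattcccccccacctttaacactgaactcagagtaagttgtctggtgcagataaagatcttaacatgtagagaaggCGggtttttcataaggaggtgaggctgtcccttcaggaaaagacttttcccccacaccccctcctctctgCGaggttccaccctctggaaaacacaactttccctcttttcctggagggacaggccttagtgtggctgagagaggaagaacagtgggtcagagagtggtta
The first of these promoters held 18 CG dinucleotides, Pou6f1 26, Zfhx2 20 and Lhx8 4. The observed-to-expected CG ratio was 0.70 in Pou3f3, 0.70 in Pou6f1 and 0.82 in Zfhx2, against 0.24 in Lhx8.

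CG-rich promoters were the common form in the set. The median observed-to-expected CG ratio was 0.718 over the 48 promoters and 0.389 over all 27025 promoters of the table, and 68.8% against 36.4% of promoters had a ratio above 0.6. The median G+C content was 61.0% against 52.7%. The GC box letters GGGCGG, searched on both strands, occurred in 66.7% of the 48 and in 35.9% of all promoters. The homeodomain core TAATTA occurred in 10.4% (5 promoters) against 5.31%, TATAAA in 6.25% against 14.2%, the cyclic AMP response element TGACGTCA in 2.08% against 1.88%, and the octamer ATGCAAAT in 0 of 48 against 1.75%. These matches describe letters in a window and were not tested.

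The genes sit partly in clusters: 16 of the 74 lie on chromosome 2, and 11 groups of neighbours have their members close together on the chromosome. The largest group is Dlx5, Dlx6, Dlx6os1 and Dlx6os2 on chromosome 6 (6820189 to 6882085, GRCm38). Dlx1, Dlx2 and Dlx1as share chromosome 2 (71516454 to 71546754), and Wt1 lies beside Pax6 and Pax6os1 further along that chromosome (105126529 to 105697364).

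Striatum and cortex differed in most of these genes, and by wider margins than in genes at large. Of the 60 members tested over both tissues, 25 were higher in WT striatum, 25 were higher in WT cortex and 10 did not pass the test. Without Wt1 and Mafa the count was 24 each way among 58. Over all 19723 genes, 74.5% were called in this comparison, so the share of members called (83.3%) is read against a high background. The median size of the log2 difference, regardless of sign, was 1.61 over the members and 0.38 over all genes. Among Q140 animals 20 members were higher in striatum and 27 in cortex, against 73.7% of all genes. The 14 members not tested here had a highest group mean of 0.217 CPM.

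Ventral forebrain factors differed in both directions. Of the 11 tested, 6 were higher in striatum (Nkx2-1, Lhx8, Dlx6, Dlx5, Dlx6os1 and Vax1). Another 3 were higher in cortex (Dlx1, Dlx2 and Dlx1as), against 74.5% of all genes called in either direction. Lhx8, a LIM homeodomain factor of striatal and basal forebrain cholinergic neurons (ENSMUSG00000096225, chromosome 3, 154306294 to 154330659), stood at 9.23 ± 0.561 CPM in WT striatum (SD, n = 8) with 3207 counts in all. In the 8 WT cortical libraries 1 count of Lhx8 was found. Nkx2-1, the selector factor of the medial ganglionic eminence (ENSMUSG00000001496, chromosome 12, 56531958 to 56536908), lay between 6.71 and 7.94 CPM in WT striatum and at no more than 0.103 CPM in WT cortex. Its log2 difference was 7.62 (SE 0.26, edgeR adjusted p = 2.88e-47). Dlx6, a Distal-less factor of GABAergic neurons, lay between 44.2 and 52.5 CPM in WT striatum and between 3.83 and 5.72 CPM in WT cortex, a log2 difference of 3.34 (SE 0.06, adjusted p = 1.25e-73). Its neighbour Dlx5 differed by 2.04 (SE 0.06, adjusted p = 5.26e-52), while Dlx1 differed by -1.39 (SE 0.16, adjusted p = 1.57e-12) and lay between 20.0 and 27.0 CPM in WT cortex against 4.53 to 13.0 CPM in WT striatum. The Dlx5 and Dlx6 pair was thus the higher in striatum and the Dlx1 and Dlx2 pair the higher in cortex. Lhx6, a factor of cortical and striatal interneurons, did not differ between the tissues beyond its spread (22.8 ± 1.17 CPM in striatum and 21.3 ± 1.62 CPM in cortex, SD, n = 8 each; adjusted p = 0.208). All 5 cholinergic marker genes were also higher in WT striatum than in WT cortex, and their part in the Lhx8 and Nkx2-1 difference was not tested.

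Gbx1, a gastrulation brain homeobox factor (ENSMUSG00000067724, chromosome 5, 24502757 to 24527202), differed by 5.73 (SE 0.36, adjusted p = 1.85e-27), with 3.15 ± 0.688 CPM in WT striatum and 0.0462 ± 0.0429 CPM in WT cortex (SD, n = 8 each). Gbx2, a factor of thalamic development, differed by 4.47 (SE 0.39, adjusted p = 5.93e-19) at 314 counts in all WT striatal libraries and 9 in all WT cortical ones. Nkx2-9, a neighbour of Nkx2-1 on chromosome 12, differed by 4.25 (SE 0.45, adjusted p = 7.33e-15). Pbx3, a TALE partner factor, differed by 3.73 (SE 0.07, adjusted p = 5.03e-70) at 72.2 ± 4.42 CPM in striatum and 5.25 ± 0.632 CPM in cortex (SD, n = 8 each). Onecut2, a cut-domain factor, differed by 3.68 (SE 0.12, adjusted p = 1.37e-46). Six3os1, which runs antisense from the Six3 locus, had 9736 counts over the WT striatal libraries and 4 over the WT cortical ones. Gbx2 shares 43.5% of its exon bases with an antisense gene, and no source used here gives the strand setting of the counting, so its count may include reads of that neighbour.

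Among the members higher in cortex were factors of mesenchyme and of cortical neurons. Alx4, a paired-type factor of craniofacial mesenchyme, had 844 counts over the WT cortical libraries and 56 over the WT striatal ones, a log2 difference of -4.32 (SE 0.34, adjusted p = 8.33e-21). Six2 (-4.27), Six4 (-3.91), Lmx1b (-3.73) and Prrx2 (-2.86) were lower in striatum with it. All 10 meningeal and fibroblast markers were lower in WT striatum than in WT cortex as well. Their summed level lay between 71.6 and 175 CPM over the cortical libraries and between 29.4 and 78.2 CPM over the striatal ones, and their part in the difference of Alx4, Six2, Six4, Lmx1b and Prrx2 was not tested. Tshz3, a teashirt zinc finger factor of cortical projection neurons, differed by -2.73 (SE 0.07, adjusted p = 1.3e-57), with 40.0 to 50.4 CPM in WT cortex and 5.77 to 8.09 CPM in WT striatum. Otx1, a factor of deep-layer cortical neurons, differed by -2.54 (SE 0.14, adjusted p = 1.44e-30). Pou3f2 was 75.3 ± 5.49 CPM in cortex and 25.6 ± 1.59 CPM in striatum (SD, n = 8 each), while its class mate Pou3f4 was 5.55 ± 0.543 CPM in cortex and 41.5 ± 3.12 CPM in striatum.

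Per length of transcript, on the FPKM scale of the authors' table, the most abundant members of WT striatum were Pou3f1 (30.4 ± 2.43 FPKM), Pou3f3 (22.5 ± 1.27 FPKM), Dlx6 (20.2 ± 0.984 FPKM), Pbx2 (18.4 ± 0.653 FPKM) and Pou6f1 (15.1 ± 1.06 FPKM; SD, n = 8 for each). In WT cortex they were Pou6f1 (29.3 ± 1.98 FPKM), Pou3f3 (23.4 ± 1.18 FPKM), Lhx2 (14.9 ± 1.36 FPKM), Pou3f2 (13.5 ± 0.909 FPKM) and Pbx2 (12.1 ± 0.666 FPKM; SD, n = 8 for each). POU factors thus took the first place in both tissues, with Pou3f1 first in striatum and Pou6f1 first in cortex.

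**Figure D1:**
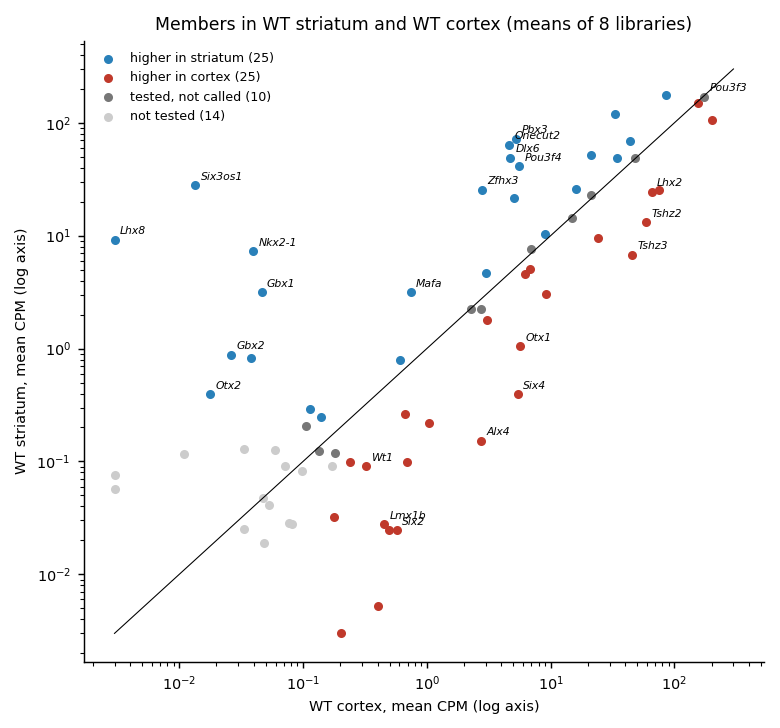
Mean CPM of each member in WT cortex (x axis, log scale) and WT striatum (y axis, log scale), 1 point per gene, means of 8 libraries; values below 0.003 CPM are drawn at 0.003. Colours mark the 25 members called higher in striatum, the 25 called higher in cortex, the 10 tested and not called and the 14 not tested; Lhx8 and Six3os1 stand farthest above the diagonal.

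In striatum the Q140 allele was accompanied by changes in part of this set, among them 4 POU factors that fell. Of the 50 members tested, 5 rose and 9 fell in Q140 against WT; Wt1 and Mafa are 1 of each, and 4 rose and 8 fell among the other 48. Over all 18890 genes tested, 31.3% were called (15.9% higher and 15.4% lower). The members' share was 28%, or 25.0% without Wt1 and Mafa, and neither share lay above that background. On the log2(FPKM + 0.1) scale, taken from the authors' own values, 8 members were called higher and 7 lower in place of 5 and 9. The median log2 fold change was -0.0023 over the 50 members, the added pair included, and 0.012 over all genes. Its median size was 0.116 against 0.105. By family, 4 of 8 tested POU factors fell and 1 rose, a gene not reported here. Of 11 ventral forebrain factors 1 rose and 1 fell, and of 6 zinc finger homeobox factors 1 rose and 1 fell. The 1 Onecut factor tested rose, 1 TALE factor fell of 7, and 1 NK-like or Gbx factor fell of 6. Neither the 5 paired-type, the 3 sine oculis nor the 1 LIM factor outside the ventral forebrain group was called. The 24 members not tested in striatum had a highest group mean of 0.239 CPM.

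**Figure D2:**
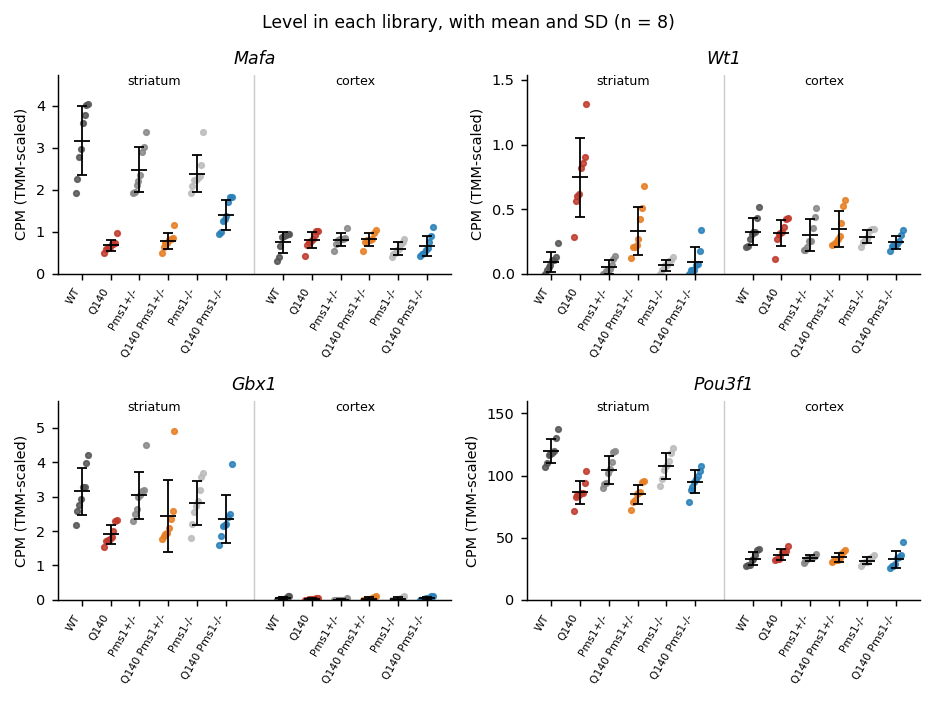
CPM (y axis) of Mafa, Wt1, Gbx1 and Pou3f1 by genotype (x axis) in striatum on the left of each panel and in cortex on the right, 1 point per library (8 per group), with the mean and SD. Striatal Mafa lay at 0.499 to 0.959 CPM in Q140 and at 1.92 to 4.05 CPM in WT, and Wt1 and Pou3f1 likewise did not overlap between those groups in striatum; for Gbx1, 6 of 8 Q140 libraries lay below every WT library.

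Mafa and Wt1 had the largest changes among the 50 members that passed the filter on low counts. As the pair was added for its change, this rank follows from the choice. Wt1 passed that filter through libraries with the knock-in, since WT held 31 counts over 8 libraries. Mafa, a basic leucine zipper factor best known for insulin gene control in pancreatic beta cells (ENSMUSG00000047591, chromosome 15, 75745490 to 75748228), ran from 1.92 CPM over a median of 3.28 to 4.05 CPM in WT striatum and from 0.499 over 0.660 to 0.959 CPM in Q140. Each Q140 library lay below each WT library, and the ratio of the means was 0.213. Wt1, a zinc finger factor of kidney and gonad development (ENSMUSG00000016458, chromosome 2, 105126529 to 105173616), ran from 0 over 0.0877 to 0.238 CPM in WT and from 0.284 over 0.721 to 1.31 CPM in Q140. The groups again did not overlap, with 31 counts over the 8 WT libraries and 267 over the 8 Q140 libraries, a ratio of mean CPM of 8.24. In cortex Wt1 ran from 0.205 to 0.513 CPM in WT and from 0.113 to 0.429 CPM in Q140, and the groups overlapped. Cortical Mafa ran from 0.308 to 0.954 CPM in WT and from 0.429 to 1.02 CPM in Q140, so Q140 striatum overlapped WT cortex, each scaled within its own tissue.

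Onecut2, a cut-domain homeobox factor, and Zfhx4 were among the members that rose. Onecut2 rose from 64.0 ± 4.83 to 75.8 ± 9.15 CPM (SD, n = 8 each), with overlapping groups (log2 fold change 0.24, SE 0.09, edgeR adjusted p = 0.0303). Without the Q140 library with the highest meningeal marker sum its adjusted p was 0.0653. Zfhx4, a zinc finger homeobox factor, lay between 24.9 and 27.0 CPM in WT and between 25.8 and 31.9 CPM in Q140, a rise of 0.20 (SE 0.05, adjusted p = 0.000339).

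Of the POU factors that fell, Pou3f1, Pou3f3 and Pou6f1 were among the most abundant members. Pou3f1, a class III POU factor known for its role in Schwann cell myelination (ENSMUSG00000090125, chromosome 4, 124656807 to 124660655), ran from 107 over 118 to 137 CPM in WT striatum and from 71.2 over 85.3 to 104 CPM in Q140. The groups did not overlap (log2 fold change -0.47, SE 0.07, adjusted p = 4.7e-07). Pou3f3, a class III factor of cortical and kidney development (ENSMUSG00000045515, chromosome 1, 42695768 to 42703176), ran from 155 over 170 to 186 CPM in WT and from 133 over 143 to 148 CPM in Q140, again without overlap (-0.26, SE 0.04, adjusted p = 3.33e-08). Pou6f1 (ENSMUSG00000009739, chromosome 15, 100575318 to 100599984), a class VI POU factor, ran from 98.8 to 115 CPM in WT and from 86.0 to 103 CPM in Q140, with overlap (-0.21, SE 0.04, adjusted p = 3.58e-05). Pou2f2, an octamer-binding factor best known in B lymphocytes, averaged 14.4 ± 1.84 CPM over WT libraries and 11.1 ± 1.36 CPM over Q140 libraries (SD, n = 8 each; -0.38, SE 0.09, adjusted p = 0.000602). Pou3f4 (adjusted p = 0.582) did not pass the test, although it was the POU factor with the widest margin in favour of striatum.

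Gbx1 had the largest decrease among the homeobox genes called. It ran from 2.18 over 3.11 to 4.21 CPM in WT striatum and from 1.53 over 1.81 to 2.31 CPM in Q140, and 6 of 8 Q140 libraries lay below every WT library (-0.71, SE 0.16, adjusted p = 0.000385). Gbx1 lies 10.2 Mb from Htt, the gene that carries the knock-in. Msx1 lies closer to Htt, at 2.9 Mb, and stood at -0.03 (adjusted p = 0.881). Any part of linkage in the change of Gbx1 was not tested. Among the animals with a first code number below 16 the log2 fold change of Gbx1 was -0.49 (adjusted p = 0.0707). Zfhx2, a zinc finger homeobox factor, fell by 0.20 on the log2 scale (SE 0.07, adjusted p = 0.0198), with 158 to 197 CPM in WT and 138 to 175 CPM in Q140. It shares 17.9% of its exon bases with the antisense gene Zfhx2os, whose reads cannot be told apart from its own if the counting ignored strand. Pbx4 averaged 7.65 ± 0.463 CPM over WT libraries and 6.67 ± 0.796 CPM over Q140 libraries (SD, n = 8 each; -0.20, SE 0.06, adjusted p = 0.00853). The remaining Pbx factors did not pass the test, with Pbx3 at 0.04 (adjusted p = 0.518) and Pbx2 at -0.06 (adjusted p = 0.135).

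The neighbours Dlx5 and Dlx6 moved in opposite directions. Dlx5 (ENSMUSG00000029755, chromosome 6, 6877805 to 6882085) ran from 19.3 over 21.7 to 22.6 CPM in WT striatum and from 20.4 over 23.5 to 24.8 CPM in Q140, with 7 of 8 Q140 libraries above every WT library (log2 fold change 0.13, SE 0.04, adjusted p = 0.0124). Dlx6 (ENSMUSG00000029754, chromosome 6, 6863334 to 6868568) ran from 44.2 over 49.4 to 52.5 CPM in WT and from 40.4 over 44.2 to 46.8 CPM in Q140, with 4 of 8 Q140 libraries below every WT library (-0.18, SE 0.04, adjusted p = 0.000135). Dlx6os1, which overlaps the Dlx6 locus antisense, stood between them at -0.04 (adjusted p = 0.552). Dlx1 (0.21, adjusted p = 0.501) and Dlx2 (0.16, adjusted p = 0.553) did not pass the test. Their WT spread in striatum was wide, from 4.53 to 13.0 CPM for Dlx1. The interneuron and cholinergic factors Lhx6, Lhx8 and Nkx2-1 stood at -0.01, 0.00 and -0.05 (adjusted p = 0.929, 0.975 and 0.714). Lhx8 averaged 9.23 ± 0.561 CPM over WT libraries and 9.24 ± 0.672 CPM over Q140 libraries (SD, n = 8 each).

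**Figure D3:**
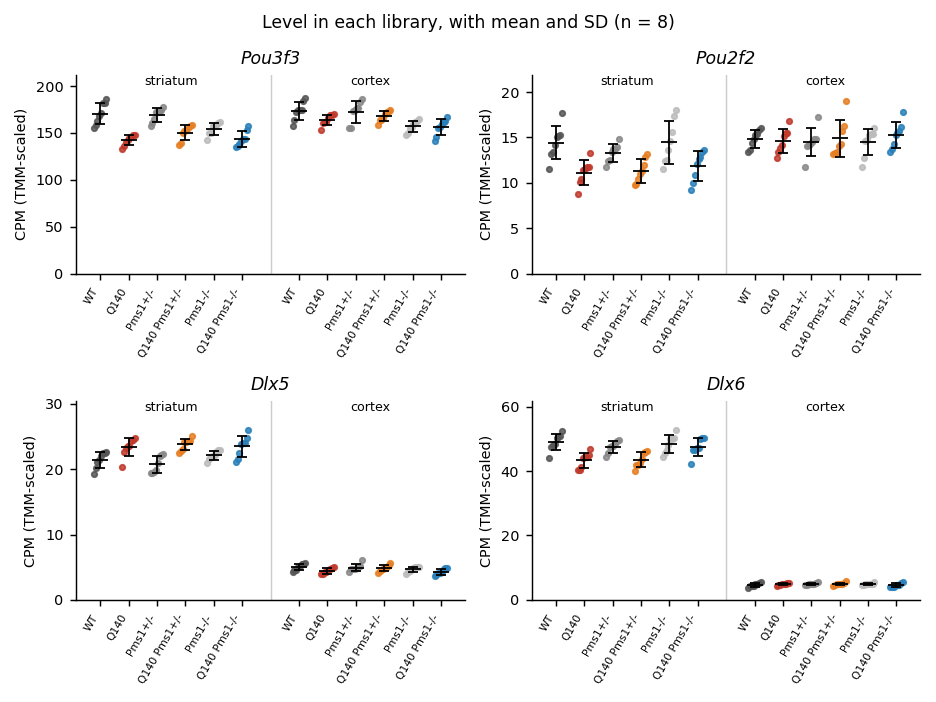
CPM (y axis) of Pou3f3, Pou2f2, Dlx5 and Dlx6 by genotype (x axis) in striatum on the left of each panel and in cortex on the right, 1 point per library (8 per group), with the mean and SD. Striatal Pou3f3 lay at 133 to 148 CPM in Q140 and 155 to 186 CPM in WT, while WT and Q140 overlapped for the other genes shown.

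Markers of other cells moved in the same libraries. All 12 medium spiny neuron markers fell in Q140 striatum, with a summed level of 15400 to 17400 CPM in WT and 9758 to 11200 CPM in Q140, and none of the 12 was at 0. The 7 subventricular zone and neuroblast markers summed to 39.0 to 73.2 CPM in WT and 78.2 to 107 CPM in Q140, with 2 of 7 called higher and none at 0. GABA interneuron markers summed to 337 to 372 CPM in WT and 313 to 345 CPM in Q140, with 2 of 8 tested called lower. Microglia markers had 4 of 6 called lower, endothelial and mural markers 3 of 8, thalamic markers 2 of 7, hypothalamic and basal forebrain markers 1 of 4 tested, cholinergic markers 1 of 5 and astrocyte markers 1 of 7, with none higher in these lists. Oligodendrocyte lineage markers had 1 higher and 1 lower of 9, choroid plexus markers 1 higher of 6 tested, and meningeal markers none of 10. Cortical glutamatergic markers had 1 higher (Lamp5, log2 fold change 0.20) and 1 lower (Bcl11b, -0.23) of 9 tested. Slc17a7, Tbr1, Neurod2 and Neurod6 were among those not called. The part of these lists in the changes of the POU and Dlx genes was not tested.

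Related lists outside the rule also held called genes. Of 8 further TALE genes, 1 rose (Meis1, log2 fold change 0.23) and 3 fell (among them Meis2, -0.26, and Pknox1, -0.16), with a list median of -0.05. Of 31 tested homeobox genes of other families, 5 rose and 4 fell, with Hhex (-0.48) and Isl1 (0.31) among those called. None of the 39 Hox genes passed the filter on low counts. Of 5 tested MAF genes other than Mafa, 0 rose and 1 fell (Mafg, -0.15). Polycomb complexes keep developmental loci silent. Of 31 tested genes on the Polycomb list, which also held Kdm6a and Kdm6b from outside those complexes, 6 rose and 5 fell. Cbx8 (0.48) and Pcgf2 (0.24) were among those that rose. Over all genes tested the median was 0.012, and 15.9% were called higher and 15.4% lower. The counts of these lists are read against that background.

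In Q140 striatum, Pms1-/- went with a higher level of Dlx6, a ventral forebrain factor. In striatum of Q140 Pms1-/- against Q140, 4 of 50 members were called (2 higher and 2 lower), or 2 of 48 without Wt1 and Mafa, against 7.10% of all genes. On the log2(FPKM + 0.1) scale 1 was higher and 2 were lower. Dlx6 ran from 42.2 over 47.2 to 50.2 CPM in Q140 Pms1-/-, higher than in Q140 by 0.13 on the log2 scale (SE 0.04, edgeR adjusted p = 0.018). All 12 medium spiny neuron markers were called higher in Q140 Pms1-/- than in Q140 (summed level 11590 to 13920 CPM), and their part in these differences was not tested.

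The added pair also lay between or near the groups without the knock-in. Mafa ran from 0.940 over 1.33 to 1.83 CPM in Q140 Pms1-/-, with 7 of 8 libraries above every Q140 library, and still lay below every WT library and every Pms1-/- library (1.91 to 3.37 CPM). Wt1 ran from 0 over 0.047 to 0.340 CPM in Q140 Pms1-/-, with 26 counts over the 8 libraries, and 7 of 8 libraries lay below every Q140 library. Its levels in Pms1-/- without the knock-in ran from 0 to 0.127 CPM, so these groups overlapped. In Q140 Pms1+/- Wt1 was intermediate, at 0.123 over 0.245 to 0.675 CPM, and 5 of 8 libraries lay below every Q140 library. Mafa in Q140 Pms1+/- ran from 0.499 over 0.764 to 1.16 CPM and overlapped Q140.

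Pms1+/- was not accompanied by a call in this set. In Q140 Pms1+/- against Q140, 0 of 50 members were called by edgeR (0% of all genes), 8 had an unadjusted p below 0.05, and DESeq2 called 0. In Pms1+/- against WT, 0 of 50 were called in striatum (0% of all genes), 4 had an unadjusted p below 0.05, and DESeq2 called 0 with 10 adjusted p-values undefined. The knock-in effect measured within Pms1+/- animals called 12 of 50 members (4 higher and 8 lower; 10 of 48 without Wt1 and Mafa) against 24.9% of all genes. On the log2(FPKM + 0.1) scale the split was 5 higher and 4 lower. Zfhx4 rose by 0.23 and Dlx5 by 0.20, while Pou3f1 (-0.29), Zfhx2 (-0.27), Pou2f2 (-0.24), Pou3f3 (-0.17), Dlx6os1 (-0.15), Pou6f1 (-0.14) and Dlx6 (-0.13) fell. All 8 Q140 Pms1+/- libraries lay above all 8 Pms1+/- libraries for Dlx5 (22.5 to 25.1 against 19.4 to 22.4 CPM).

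Measured within Pms1-/- animals, the knock-in called 5 of 50 members (1 higher and 4 lower; 4 of 48 without the added pair) against 11.1% of all genes, with 1 higher and 2 lower on the log2(FPKM + 0.1) scale. Pou2f2 (-0.29, SE 0.09, adjusted p = 0.026), Pou6f1 (-0.17, SE 0.04, adjusted p = 0.00287) and Pou3f3 (-0.11, SE 0.04, adjusted p = 0.0382) fell. The change of the knock-in effect itself between Pms1-/- and wild-type Pms1 was tested as an interaction. Without Wt1 and Mafa it called 1 of 48 members, which is not reported here, against 5.05% of all genes. With the added pair the count was 3 of 50. Pou3f3 (0.16, adjusted p = 0.054), Onecut2 (-0.39, adjusted p = 0.055) and Pou3f1 (0.29, adjusted p = 0.065) were near the threshold and did not pass. Pou3f3 stood at 0.01 in Q140 Pms1-/- against Q140 (edgeR adjusted p = 0.886) and at -0.14 in Pms1-/- against WT.

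**Figure D4:**
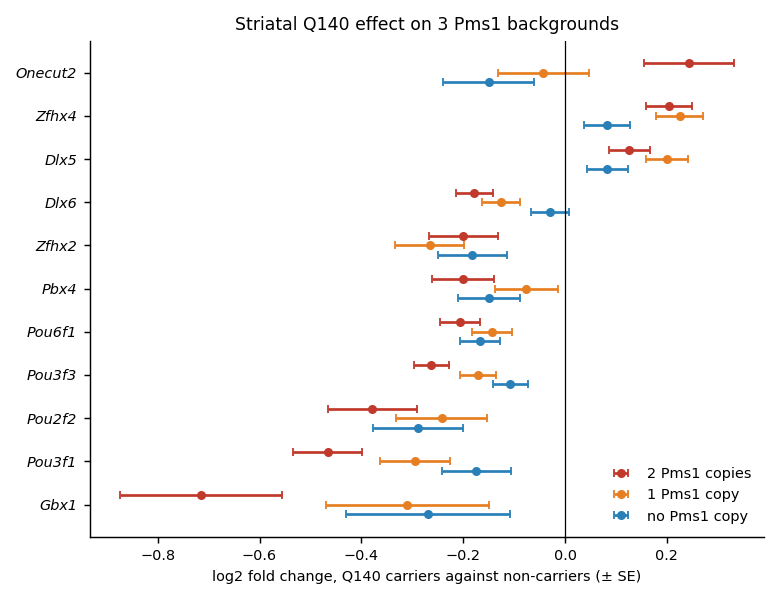
Log2 fold change of the knock-in in striatum (x axis) for 11 of the 12 homeobox members called in Q140 against WT (y axis). Values with bars of 1 SE are given for Q140 against WT (2 Pms1 copies), Q140 Pms1+/- against Pms1+/- (1 copy) and Q140 Pms1-/- against Pms1-/- (no copy). In that order Pou3f3 lay at -0.26, -0.17 and -0.11, Dlx5 at 0.13, 0.20 and 0.08, and Pou2f2 at -0.38, -0.24 and -0.29. For none of the 11 was the difference between no copy and 2 copies called by the edgeR interaction test. Of the 48 homeobox members tested, that test called 1, which is not drawn.

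Set against WT, Q140 Pms1-/- striatum differed in 8 of 50 members, or 7 of 48 without Mafa and Wt1, against 20.0% of all genes. Dlx5 was among the higher, and Pou3f1, Pou3f3, Pou2f2, Pou6f1 and Prrx1 were lower. Of these, Prrx1 was not called in Q140 against WT striatum (-0.10, edgeR adjusted p = 0.343). It stood at -0.23 in Pms1-/- against WT striatum (adjusted p = 0.053), where Pou3f3 was called lower (-0.14). These comparisons share the WT and Q140 libraries with those above and are not independent of them.

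Pms1-/- on its own was accompanied by small changes, with 8 members called in cortex and 1 in striatum. In cortex 8 of 49 members were called against WT (3 higher and 5 lower, neither Wt1 nor Mafa among them), against 9.58% of all genes. On the log2(FPKM + 0.1) scale 4 were called, 1 higher and 3 lower. Dlx1as, an antisense transcript of the Dlx1 locus (ENSMUSG00000084946, chromosome 2, 71516454 to 71537891), ran from 8.85 over 9.15 to 10.3 CPM in WT cortex and from 6.24 over 7.29 to 8.97 CPM in Pms1-/- (log2 fold change -0.33, SE 0.07, edgeR adjusted p = 0.00295). Dlx1 on the other strand moved the opposite way, from 24.0 ± 2.63 to 27.1 ± 1.66 CPM (SD, n = 8 each; 0.17, SE 0.05, adjusted p = 0.0249). These transcripts share 335 exon bases, 20.6% of Dlx1as. The class III POU factors Pou3f4, Pou3f3 and Pou3f2 fell: Pou3f4 by 0.25 (adjusted p = 0.0231), Pou3f3 by 0.14 (adjusted p = 0.0074) and Pou3f2 by 0.14 (adjusted p = 0.0493). Tshz1 fell by 0.13 (adjusted p = 0.041), Zfhx3, a factor of circadian neurons, rose by 0.22 (adjusted p = 0.0466), and Onecut2 rose by 0.36 (adjusted p = 0.0495).

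Markers of several cell types were also lower in Pms1-/- cortex than in WT cortex. Of the endothelial and mural markers 3 of 8 fell (Cldn5, log2 fold change -0.39, Flt1, -0.18, and Vtn, -0.20), and their summed level ran from 279.4 to 340.3 CPM in WT and from 246.1 to 299.6 CPM in Pms1-/-. Of the oligodendrocyte lineage markers 3 of 9 fell (Sox10, -0.26, Olig2, -0.21, and Olig1, -0.15), with sums of 1513 to 1906 CPM in WT and 1480 to 1737 CPM in Pms1-/-. The microglia markers P2ry12 (-0.16) and Cx3cr1 (-0.14) fell, 2 of 6 tested, with sums of 239.3 to 275.3 CPM in WT and 230.9 to 263 CPM in Pms1-/-. The interneuron markers Cort (-0.78) and Npy (-0.16) fell, 2 of 9 tested, as did the cortical glutamatergic markers Neurod6 (-0.24) and Lamp5 (-0.20), 2 of 10 tested. Single markers of astrocytes (Aqp4, -0.22), meninges (Foxc1, -0.42) and medium spiny neurons (Penk, -0.36) fell too, and Plekhg1 (0.23), a marker on the thalamic list, rose. In Pms1-/- striatum Cldn5 (-0.40), Cx3cr1 (-0.18), P2ry12 (-0.15) and Sox10 (-0.24) were the markers called, all lower. The summed ranges overlapped for each list in cortex given here, and the part of these markers in the members' changes was not tested.

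The count of cortical calls moved with the libraries used: it was 2 without the 3 libraries rich in choroid plexus markers, and 1 among animals with a first code number of 16 or more. Females alone gave 4 and males alone 0. Pou3f3 was the 1 member called for Pms1-/- in striatum, out of 50 and against 7.91% of all genes: 155 to 186 CPM in WT and 142 to 161 CPM in Pms1-/- (-0.14, SE 0.04, adjusted p = 0.00885). In cortex it ran from 157 to 187 CPM in WT and from 148 to 164 CPM in Pms1-/-. Pou3f3 lies on chromosome 1, 10.5 Mb from Pms1, the closest of the 6 members on that chromosome. Restricted to animals with a first code number of 16 or more, its log2 fold change was -0.04 in striatum (adjusted p = 0.847) and -0.02 in cortex (adjusted p = 0.876). In Pms1+/- cortex it was -0.01 (adjusted p = 0.979). Whether linkage or the code number has a part in the fall of Pou3f3 was not tested. No member differed in its Pms1-/- effect between the tissues by edgeR (0 of 60, against 0.00507% of all genes), 6 had an unadjusted p below 0.05, and DESeq2 called 1 with 23 adjusted p-values undefined.

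In Q140 Pms1-/- cortex against WT, 3 of 49 members were called against 7.66% of all genes. Dlx1as (-0.27, SE 0.07, adjusted p = 0.0131) and Pou3f3 (-0.15, SE 0.03, adjusted p = 0.00643) were lower. Outside the members, in Pms1-/- against WT, 1 further TALE gene (Meis3, 0.18), 0 MAF genes and 2 Polycomb genes rose in cortex. No further TALE gene, 1 MAF gene (Maf, -0.12), 1 homeobox gene of the other families (Zhx1, -0.09) and 2 Polycomb genes fell. In that comparison 9.58% of all genes were called.

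No member passed the test for the knock-in in cortex. In Q140 against WT cortex, 0 of 49 members were called by edgeR against 0.0428% of all genes, 7 had an unadjusted p below 0.05, DESeq2 called 0, and the smallest adjusted p was 0.416 for Dlx6os1 (21.1 ± 1.58 CPM over WT libraries and 19.1 ± 1.21 CPM over Q140 libraries, SD, n = 8 each). Dlx1as did not overlap between these groups (8.85 to 10.3 CPM in WT and 7.39 to 8.85 CPM in Q140, the highest Q140 library just below the lowest WT one), yet did not pass the test over all genes (adjusted p = 0.567). In Q140 Pms1-/- against Q140 cortex, 0 of 49 were called against 0.0107% of all genes, 0 had an unadjusted p below 0.05, and DESeq2 called 0 with 27 adjusted p-values undefined. Within Pms1+/- cortex the knock-in called 0 members against 0.112% of all genes (10 at an unadjusted p below 0.05, DESeq2 1 with 13 adjusted p-values undefined), and within Pms1-/- cortex 0 against 0.0428% (5 at an unadjusted p below 0.05, DESeq2 0). Likewise 0 were called by edgeR, with 0% of all genes, in Pms1+/- against WT cortex (6 at an unadjusted p below 0.05, DESeq2 0 with 39 of 49 adjusted p-values undefined), in Q140 Pms1+/- against Q140 cortex (5, DESeq2 0) and for the interaction in cortex (8, DESeq2 0).

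Whether the knock-in effect differed between the tissues was tested directly. Of 60 members, 11 were called (3 higher and 8 lower in striatum relative to cortex; 2 and 7 of 58 without Wt1 and Mafa), against 13.3% of all genes. Dlx5 had a higher effect in striatum than in cortex (difference 0.29 on the log2 scale, SE 0.08, edgeR adjusted p = 0.00778). Pou3f1 (-0.61, SE 0.11, adjusted p = 1.85e-05), Pou2f2 (-0.36, SE 0.11, adjusted p = 0.0168), Dlx6 (-0.23, SE 0.07, adjusted p = 0.0225), Pou3f3 (-0.20, SE 0.05, adjusted p = 0.00339) and Pou6f1 (-0.18, SE 0.05, adjusted p = 0.00679) had lower effects in striatum. Cortical Pou3f1 ran from 27.1 to 40.6 CPM in WT and from 32.4 to 43.2 CPM in Q140, so the groups overlapped there. Each of these 6 genes was also called in Q140 against WT striatum.

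Otx2 and Six3os1 were called in the same test, but not without the 3 cortical libraries rich in choroid plexus markers. Otx2, a homeobox factor of the choroid plexus and the midbrain, had a difference of -4.81 (SE 1.36, adjusted p = 0.00831) and Six3os1 one of -2.81 (SE 0.93, adjusted p = 0.0297). In the 3 cortical libraries rich in choroid plexus markers Otx2 lay between 2.58 and 3.44 CPM and Six3os1 between 0.556 and 0.737 CPM, whereas the other 45 cortical libraries did not exceed 0.153 CPM for Otx2 and 0.0908 CPM for Six3os1. Of these 3, 1 is a Q140 library. Without the 3 libraries the difference was -1.73 for Otx2 (adjusted p = 0.225), -1.07 for Six3os1 (adjusted p = 0.408) and -0.20 for Dlx6 (adjusted p = 0.0545), and 8 members were called. With the animal as a block, Otx2 had an adjusted p of 0.0757 and Six3os1 of 0.115.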

How the data were processed

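Total RNA from striatum and cortex was sequenced from 96 libraries with a stranded mRNA kit, per the labels' protocols. The authors deposited a table of whole-number read counts per gene and a table of FPKM values. The aligner STAR (2.7.5c), the counter HTSeq (0.12.3) and SAMtools (1.10), with the builds GRCm38 and mm10, are named in the submitters' processing notes. No source used here gives the annotation release or the strand setting of the counting. Gene coordinates and exon overlaps were taken from a GRCm38 annotation (GENCODE).

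Counts were tested with edgeR's quasi-likelihood test (edgeR 4.0.16, R 4.3.3) after TMM scaling and filterByExpr, per tissue over 48 libraries with genotype and sex as terms, which left 18890 genes in striatum and 18711 in cortex. A fit over both tissues (19723 genes) had genotype by tissue and sex within tissue. Standard errors are the log2 fold change divided by the square root of F. P-values were adjusted by Benjamini-Hochberg over all genes tested. DESeq2 1.42.0 and limma 3.58.1 served as alternatives, the latter on log2(FPKM + 0.1) and log2(FPKM + 1). A fold change on those scales understates the change of low genes. The scripts were tested on simulated data.

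Animals were taken as independent, since the labels give each its own code. Both tissues came from the same animals: over 48 pairs the median correlation of deviations from the group means was 0.173 (lowest 0.0543, 43 above 0.1), and 42 of the 48 matched their own animal best. The series text states more animals per group than the labels list, and the labels were followed.

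The members, gene lists and tests were chosen with earlier results of these data known. Named genes were Wt1 and Mafa, called members (at most 8 each way per comparison), the 6 largest tissue differences each way at a mean of at least 0.5 CPM, the 5 highest by FPKM per tissue, and those nearest the limit of 100 counts. Some genes that this rule takes are not reported here. Other members named were chosen after their values were seen.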

Additional observations from a re-analysis of the deposited data

Results flagged for a closer look

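In 38 of 408 groups of 8 libraries, over 34 named genes, the highest or lowest library lay farther from the next than Dixon's critical value of 0.526 of the group's range. For normally distributed values chance gives about 1 in 20 such groups. That rate need not hold for groups of very low CPM, where a few reads set a library apart. Each is given in CPM with the value nearest to it.

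Otx2 had 7 outlying values: 0.496 CPM in Q140 striatum (highest; next 0.351), 0.878 CPM in Q140 Pms1+/- striatum (highest; next 0.499), 0.115 CPM in WT cortex (highest; next 0.0279), 3.35 CPM in Q140 cortex (highest; next 0.0847), 0.151 CPM in Q140 Pms1+/- cortex (highest; next 0.0544), 3.44 CPM in Pms1-/- cortex (highest; next 0.0537) and 2.58 CPM in Q140 Pms1-/- cortex (highest; next 0.0669). Six3os1 had 3 outlying values: 0.716 CPM in Q140 cortex (highest; next 0.065), 0.737 CPM in Pms1-/- cortex (highest; next 0.0514) and 0.556 CPM in Q140 Pms1-/- cortex (highest; next 0.0908). The Q140, Pms1-/- and Q140 Pms1-/- cortical values of both genes above 0.5 CPM are those of the 3 libraries rich in choroid plexus markers.

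Mafa had an outlying library at 3.37 CPM in Pms1-/- striatum (highest; next 2.58). Gbx1 had 4 outlying values: 4.51 CPM in Pms1+/- striatum (highest; next 3.19), 4.91 CPM in Q140 Pms1+/- striatum (highest; next 2.57), 3.96 CPM in Q140 Pms1-/- striatum (highest; next 2.48) and 0.0584 CPM in Pms1+/- cortex (highest; next 0). Pou6f1 had 2 outlying values: 86.1 CPM in Q140 Pms1+/- striatum (lowest; next 90.8) and 208 CPM in Pms1+/- cortex (highest; next 200). Likewise Zfhx2 lay at 72.4 CPM in Pms1+/- cortex (lowest; next 89.8). For Dlx5 the value apart was 6.17 CPM in Pms1+/- cortex (highest; next 5.16). Dlx6 had 2 outlying values: 42.2 CPM in Q140 Pms1-/- striatum (lowest; next 46.5) and 5.47 CPM in Pms1-/- cortex (highest; next 5.06). Likewise Dlx1as lay at 10.3 CPM in WT cortex (highest; next 9.34). Pou3f4 had an outlying library at 6.08 CPM in Q140 Pms1-/- cortex (highest; next 5.07). For Pou3f2 the value apart was 22.1 CPM in WT striatum (lowest; next 24.9).

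Zfhx3 had 2 outlying values: 3.54 CPM in Q140 cortex (highest; next 3.03) and 2.77 CPM in Pms1-/- cortex (lowest; next 3.15). For Alx4 the value apart was 1.11 CPM in Q140 striatum (highest; next 0.16). A library of Six2 stood at 0.216 CPM in Q140 striatum (highest; next 0.0759). Likewise Six4 lay at 0.157 CPM in WT striatum (lowest; next 0.354). Tshz3 had an outlying library at 58.7 CPM in Q140 Pms1-/- cortex (highest; next 48.2). Lhx8 had 3 outlying values: 0.0203 CPM in WT cortex (highest; next 0), 0.129 CPM in Pms1-/- cortex (highest; next 0.0447) and 0.0751 CPM in Q140 Pms1-/- cortex (highest; next 0.0216). A library of Nkx2-1 stood at 0.125 CPM in Q140 Pms1-/- cortex (highest; next 0.0432). Gbx2 had 2 outlying values: 0.0919 CPM in WT cortex (highest; next 0.0433) and 0.0648 CPM in Q140 Pms1-/- cortex (highest; next 0.0303). Nkx2-9 had an outlying library at 1.54 CPM in Pms1+/- striatum (highest; next 1.11). For Pbx2 the value apart was 75.8 CPM in Pms1-/- striatum (highest; next 69). The Alx4 and Six2 values of Q140 striatum come from 1 library, whose summed meningeal and fibroblast markers stood at 78.2 CPM; the part of those markers in them was not tested.

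The effect of the Q140 allele differed between striatum and cortex, by the test of the difference itself, for Otx2 (log2 difference -4.81), Six3os1 (-2.81), Pou3f1 (-0.61), Pou2f2 (-0.36), Dlx6 (-0.23), Pou3f3 (-0.20), Pou6f1 (-0.18) and Dlx5 (0.29). Without the 3 cortical libraries rich in choroid plexus markers Otx2 (-1.73, adjusted p = 0.225), Six3os1 (-1.07, adjusted p = 0.408) and Dlx6 (-0.20, adjusted p = 0.0545) did not pass edgeR's test. With the animal as a block Otx2 (adjusted p = 0.0757) and Six3os1 (adjusted p = 0.115) did not pass it either. Without the filter on low counts Six3os1 (adjusted p = 0.0617) and Dlx6 (adjusted p = 0.0522) did not pass.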

How the results depend on the processing

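Of 110 alternative counts of members called, 85 stayed within 1.5 times the reported count and 25 moved further. Males alone gave 9 in Q140 against WT striatum (reported 14), 7 in Q140 Pms1+/- against Pms1+/- (reported 12), 3 in Q140 Pms1-/- against Pms1-/- (reported 5) and 0 in Pms1-/- against WT striatum (reported 1). Q140 Pms1-/- against Q140 striatum gave 2 in females, 2 in males and 2 among animals with a first code number of 16 or more (reported 4). Pms1-/- against WT striatum gave 2 at a mean of at least 1 CPM, 4 by DESeq2, 2 in females and 0 among animals with a first code number of 16 or more. Q140 Pms1-/- against Pms1-/- gave 3 without the filter on low counts and 3 on log2(FPKM + 0.1). The interaction (reported 3) gave 1 without the filter, 5 by DESeq2, 1 in females and 1 in males. Pms1-/- against WT cortex (reported 8) gave 5 without the filter, 4 on log2(FPKM + 0.1), 5 on log2(FPKM + 1), 4 in females, 0 in males, 3 with the first code number as a random block, 1 among animals with a first code number of 16 or more and 2 without the 3 libraries rich in choroid plexus markers, an alternative chosen after seeing the data. Smaller sets of samples test with fewer libraries; for the other settings the cause was not tested.

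With the animal as a block, which pairs the tissues, 51 members were called between WT striatum and WT cortex (reported 50) and 12 for the tissue difference of the Q140 effect (reported 11). Otx2 and Six3os1 lost their calls, and no other named gene did. Of 576 alternative values of single genes, 453 were alike, 110 no longer passed the threshold, 13 moved by more than the spread (all of Wt1 or Mafa) and 0 changed sign. Wt1 in Q140 against WT striatum had a log2 difference of 0.94 on log2(FPKM + 0.1) and 0.15 on log2(FPKM + 1). At 31 counts over 8 WT libraries its fold depends on the scale. Members not tested in striatum had group means of at most 0.239 CPM, where small differences were not detectable at this depth. The first code number cannot in large part be told apart from Pms1-/-.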

Other observations

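Onecut1, a cut-domain homeobox factor, failed the filter on low counts in striatum and was chosen here after its values were seen. It had 14 counts over the 8 WT striatal libraries (0 to 0.0954 CPM) and 73 over the 8 Q140 libraries (0.0533 to 0.405 CPM), with 12 over Q140 Pms1-/- and 30 over Q140 Pms1+/-. Without the filter the log2 fold change was 2.30 in Q140 against WT (SE 0.49, edgeR adjusted p = 0.000206) and -2.34 in Q140 Pms1-/- against Q140 (SE 0.50, adjusted p = 0.00162). These comparisons share the Q140 libraries and are not independent of each other. In cortex Onecut1 had 17 counts over WT and 33 over Q140. It shares 52.8% of its exon bases with a predicted gene on the same strand, so part of its reads may have been left uncounted or assigned to that gene.

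Among the Polycomb genes, Cbx8 rose in Q140 striatum (log2 fold change 0.48) and was lower in Q140 Pms1-/- than in Q140 (-0.43). These comparisons share the Q140 libraries. Meis2, a TALE factor of the striatal lineage, fell in Q140 (-0.26) and was higher in Q140 Pms1-/- than in Q140 (0.12).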
